A study of Mus musculus with 45 samples.

Results

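Gene expression in the skeletal muscle of 2 inbred mouse strains was compared on a low-fat diet. The comparison rested on 7 of the 45 arrays of the study, namely 3 arrays of C57Bl/6 (B6) mice, numbered 13 to 15, and 4 arrays of 129S6/SvEvTac (129S6) mice, numbered 9 to 12, chosen by the tissue, diet and strain in their labels. The study also held 8 muscle arrays of the high-fat diet, 4 of B6 and 4 of 129S6 mice, and arrays of liver and epididymal fat of both strains on both diets. The mice were 6 months old. Each array carried labelled cRNA from 25 µg of RNA pooled from 2 to 3 mice, so the spread between arrays is a spread between pools, and differences between single mice within a pool cannot be seen. The design text describes a single diet, in which fat gave 21% of the calories, carbohydrate 57% and protein 22%, without naming it as the low-fat or the high-fat one, and the muscle taken is not named either. Precision is limited by the number of arrays. All differences are B6 minus 129S6 in log2 units ± SE, and adjusted p-values are those of limma over 8251 genes, with a threshold of 0.05.

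B6 mice become obese, insulin resistant and diabetic on fat-rich diets more readily than 129S6 mice. Clusters of brown adipocytes, fat cells that burn fuel to make heat, are known to occur between the muscle bundles of 129S6 mice. Uncoupling protein 1, encoded by Ucp1, lets protons leak back across the inner mitochondrial membrane of these cells and is their defining protein. Muscle fibres themselves fall into slow, oxidative types and fast, more glycolytic types, each with its own set of contractile proteins.

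The arrays carried the tissue's signature, and 1 of them stood apart. All 16 skeletal muscle fibre markers were measured, and each had a higher mean in muscle than in liver and in fat. Array 129S6 replicate 9 had an SD over probe sets of 1.574, against 1.814, 1.83 and 1.881 in the B6 arrays and 1.825, 1.86 and 1.861 in the other 129S6 arrays. Its correlations with the other low-fat arrays over all probe sets, which are not independent of each other, were 0.856 to 0.901, whereas those arrays correlated with each other at 0.972 to 0.99. With the 4 high-fat B6 arrays, whose SDs were also low (1.592 to 1.704), replicate 9 correlated at 0.929 to 0.964. The summed level of the fibre markers, on the linear scale, was 56584 to 63239 in the B6 arrays, against 57468 to 60475 in 129S6 replicates 10 to 12 and 18838 in replicate 9. For the Gapdh controls the signal at the 3' end minus that at the 5' end, a gap that widens with RNA degradation, was 0.350 to 0.807 in the B6 arrays and 0.291 to 2.558 in the 129S6 arrays, with replicate 9 at 1.116. The Actb controls went the other way. Their gap was 0.82 to 2.02 in the B6 arrays and -0.19 to 1.17 in the 129S6 arrays, with replicate 9 at -0.07. Between the strains, none of 13 measures of array quality and marker level differed by an exact permutation test (two-sided, adjusted p at least 0.743). With 3 against 4 arrays the smallest p possible is 0.0571. The summed peripheral nerve markers did not overlap, at 1745.6 to 2081.3 in the B6 arrays, against 1384.6 to 1681.5 in the 129S6 arrays, and were at that smallest p before adjustment.

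**Figure D1:**
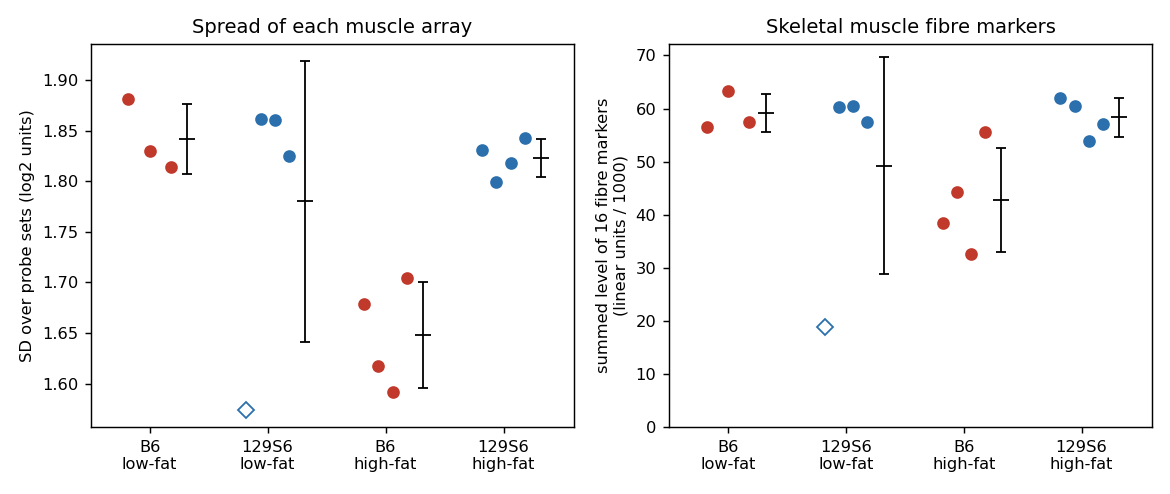
Spread of the values of each muscle array (left, SD over probe sets in log2 units) and summed level of the 16 fibre markers (right, linear scale), with 1 point for each array, B6 in red, 129S6 in blue, and group means ± SD in black. The open diamond is 129S6 low-fat replicate 9, at 1.574 and 18838, and the 4 high-fat B6 arrays have SDs of 1.592 to 1.704.

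Few genes passed the test between the strains on the low-fat diet. Their differences ran in size from 0.61 log2 units in Zfp617 to 3.62 in Snhg6. Limma called 23 of 8251 genes (0.279%), of which 20 were higher in B6 (0.242% of the genes tested) and 3 lower (0.0364%). An unadjusted p under 0.05 was reached by 503 genes (6.1%). In all 23 called genes the 3 B6 arrays did not overlap the 4 129S6 arrays, as was also true of 742 of the 8251 genes (8.99%). Without replicate 9 the count was 33 (0.4%), with 26 higher and 7 lower in B6 (0.315% and 0.0848%), and it held 22 of the 23 genes; Gdap10 (1.12 ± 0.23, adjusted p = 0.051) was lost. When the high-fat B6 arrays with their narrow spread were left out of the fit as well, an alternative chosen after the data were seen, 78 genes were called (0.945%), 57 higher and 21 lower (0.691% and 0.255%), the 23 among them. In all 78 the B6 arrays did not overlap 129S6 replicates 10 to 12, as was true of 1558 of the 8251 genes (18.9%). With replicate 9 put back, 51 of the 78 (65.4%) did not overlap. Limma then estimated the spread from the other 10 muscle arrays. Leaving out any single array gave counts of 9 to 33, with 9 without B6 replicate 13, 9 without B6 replicate 14, 11 without B6 replicate 15, and 16, 15 and 12 without 129S6 replicates 10, 11 and 12. By the array numbers in the sample names, B6 replicates 13 and 14 stood apart from a run that held B6 replicate 15 and the 129S6 arrays. With the array number as a covariate 4 genes were called, and with B6 replicate 15 alone against the 129S6 arrays of its run of numbers 5 were, all of them higher in B6.

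**Figure D2:**
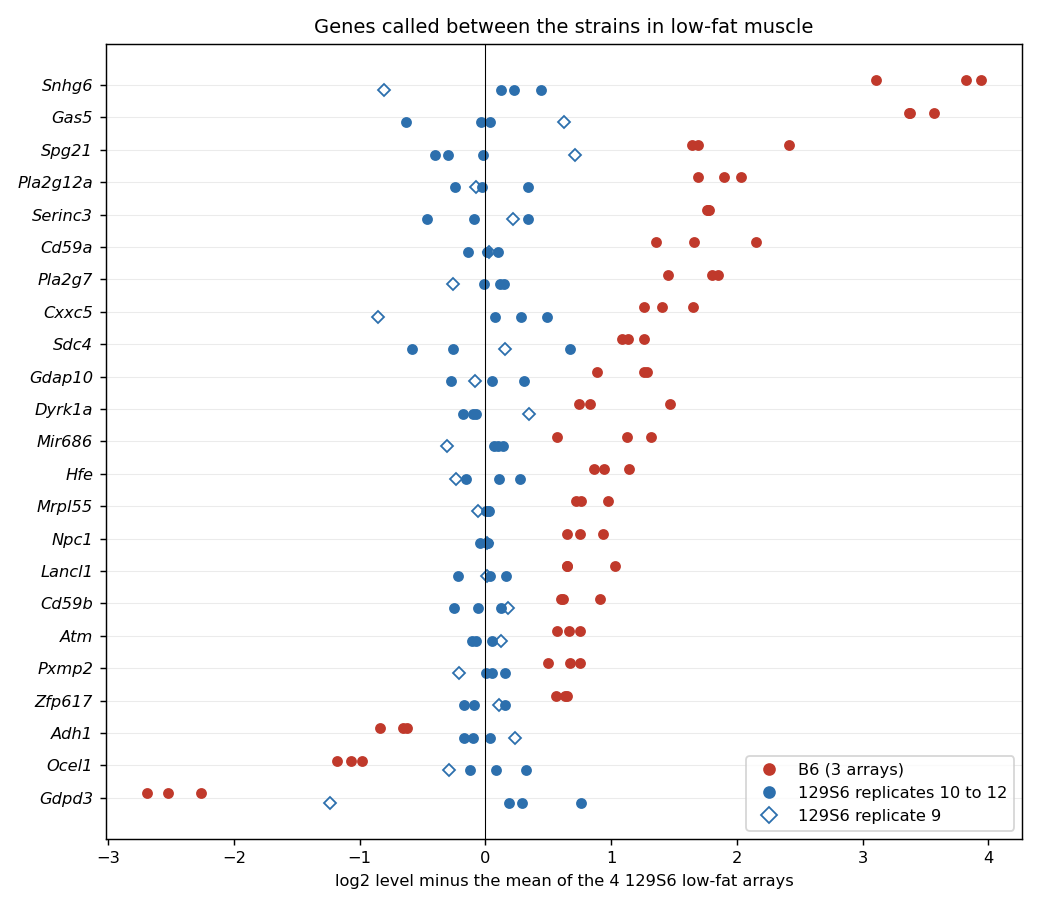
Level of the 23 called genes in each low-fat array, in log2 units relative to the mean of the 4 129S6 arrays, with the B6 arrays in red above the 129S6 arrays in blue and 129S6 replicate 9 as an open diamond. The 3 B6 points lie apart from all 4 129S6 points in every row, from Snhg6 at the top with a difference of 3.62 to Gdpd3 at the bottom with -2.49.

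The largest differences were in 2 noncoding RNAs that carry small nucleolar RNAs in their introns. Gas5 (growth arrest specific 5) was at 9.12, 8.92 and 8.93 log2 units in the B6 arrays, against 6.18, 4.92, 5.52 and 5.59 in 129S6 replicates 9 to 12. Every B6 array was far above the highest 129S6 array, and replicate 9, at the upper end of its group, lay with its strain. The difference was 3.44 ± 0.31, or 10.8-fold (adjusted p = 0.000137), and 3.65 ± 0.29 without replicate 9. Snhg6 (small nucleolar RNA host gene 6) was at 9.01, 8.89 and 8.17 in B6, against 4.26, 5.30, 5.19 and 5.51 in 129S6. Here replicate 9 was the lowest array, and the groups were again far apart (3.62 ± 0.49, 12.3-fold, adjusted p = 0.00341; 3.36 ± 0.49 without replicate 9). Both genes passed whichever array was left out, with adjusted p at most 0.00178 for Gas5 and 0.0352 for Snhg6. The other probe sets of these genes were dim, at means below 4.5 log2 units, and differed by -0.12 and 0.08 for Gas5 and by 0.45 for Snhg6 (adjusted p = 0.801, 0.909 and 0.514 over all probe sets). The difference in either gene therefore rests on 1 probe set. In the other tissues on the low-fat diet Gas5 differed by 3.15 ± 0.25 in liver and 3.36 ± 0.44 in fat, and Snhg6 by 2.20 ± 0.13 and 1.97 ± 0.30 (adjusted p between 8.74e-09 and 0.0066).

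The sequence before the start of Gas5 in the B6 reference assembly is shown beside that of Ucp1, described further on, because these genes had the largest called difference in each direction once the arrays of narrow spread were left out (3.65 and -3.56). They are the 250 bases before 1 of the 2 annotated Gas5 starts (GRCm38.p6 chr1:161034916-161035165, plus strand) and before the Ucp1 start (chr8:83290098-83290347, plus strand), from RefSeq, with the letters TATATA in capitals.
Gas5: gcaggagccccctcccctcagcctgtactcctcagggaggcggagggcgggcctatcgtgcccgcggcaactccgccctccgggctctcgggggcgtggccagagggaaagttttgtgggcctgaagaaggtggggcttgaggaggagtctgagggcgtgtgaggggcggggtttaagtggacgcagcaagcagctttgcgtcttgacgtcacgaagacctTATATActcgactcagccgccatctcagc
Ucp1: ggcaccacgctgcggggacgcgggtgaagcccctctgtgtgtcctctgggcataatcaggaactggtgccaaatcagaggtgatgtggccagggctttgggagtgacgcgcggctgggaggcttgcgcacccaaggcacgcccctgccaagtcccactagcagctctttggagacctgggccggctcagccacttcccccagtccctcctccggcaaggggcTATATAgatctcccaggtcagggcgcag
Each holds TATATA once, beginning 29 bases before the start in Gas5 and 28 in Ucp1, and 1724 of 32851 promoter windows of this length (5.25%) hold these letters, which read the same on both strands. The Gas5 window has 17 CG dinucleotides and the Ucp1 window 12, against a median of 6 over all windows. The other Gas5 window has none of the TATATA letters and 27 CG dinucleotides. With all arrays Ucp1 was not called, and Gdpd3 was the largest called difference with lower values in B6. The Gdpd3 window also has none of these letters, and 6 CG dinucleotides. Snhg6, the largest difference with all arrays, had no window to examine. No sequence of 129S6 mice was compared.

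Some of the called genes act on lipids or related compounds, a grouping made after the calls were known and not tested as a set. Gdpd3, an enzyme of the glycerophosphodiester phosphodiesterase family that acts on lysophospholipids, was at 6.57, 6.14 and 6.31 in B6, against 7.60, 9.12, 9.59 and 9.02 in 129S6. It was the largest called difference with lower values in B6, and replicate 9 lay between the strains (-2.49 ± 0.33, 5.62-fold higher in 129S6, adjusted p = 0.00341; -2.90 ± 0.16 without replicate 9). Pla2g12a, a secreted phospholipase A2, was at 9.92, 9.71 and 10.05 in B6, against 7.95, 7.78, 8.36 and 7.99 in 129S6, and no array of either strain came near the other (1.87 ± 0.18, 3.67-fold, adjusted p = 0.000137). A second, dimmer probe set of Pla2g12a gave 0.96 ± 0.53 and did not pass (adjusted p = 0.8). Pla2g7, the phospholipase that inactivates platelet-activating factor, was at 6.50, 6.89 and 6.84 in B6, against 4.78, 5.16, 5.19 and 5.03 in 129S6 (1.70 ± 0.16, 3.26-fold, adjusted p = 0.000137). Npc1, which moves cholesterol out of lysosomes, was at 7.81, 7.91 and 8.09 in B6, against 7.12 to 7.17 in 129S6 (0.78 ± 0.13, adjusted p = 0.0202). Pxmp2, a membrane protein of peroxisomes, differed by 0.64 ± 0.11 (adjusted p = 0.0213). Adh1, an alcohol dehydrogenase that also acts on retinol, was at 7.25, 7.46 and 7.43 in B6, against 8.32, 8.12, 7.92 and 7.98 in 129S6 (-0.70 ± 0.11, adjusted p = 0.013). Gdpd3, Pla2g12a and Pla2g7 passed whichever array was left out, with adjusted p at most 0.0311, 0.00178 and 0.00236. Adh1 did not pass without any 1 of the 3 B6 arrays (adjusted p up to 0.0772), and Pxmp2 did not without B6 replicates 13 or 14 or 129S6 replicates 10 or 11 (up to 0.165). Npc1 passed only without replicate 9 among these 7 fits (adjusted p up to 0.147).

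Genes for membrane proteins are given together next, likewise grouped after the calls were known. Cd59a, which shields cells from the membrane attack complex of complement, was at 8.17, 8.47 and 8.96 in B6, against 6.84, 6.92, 6.82 and 6.67 in 129S6. The 129S6 arrays lay close together, replicate 9 among them (1.72 ± 0.19, 3.30-fold, adjusted p = 0.000415). Cd59b, its neighbouring gene copy, was at 6.97, 6.96 and 7.26 in B6, against 6.53, 6.11, 6.29 and 6.47 in 129S6 (0.71 ± 0.13, adjusted p = 0.0253). Their sequences are alike, so signal from either can reach the other's probes, and the share of each is uncertain. Serinc3, a membrane protein of the serine incorporator family, was at 9.51, 9.52 and 9.50 in B6, against 7.96, 7.28, 8.08 and 7.65 in 129S6 (1.77 ± 0.29, 3.41-fold, adjusted p = 0.0179). Sdc4, the heparan sulfate proteoglycan syndecan 4, was at 6.74, 6.88 and 6.70 in B6, against 5.77, 6.29, 5.03 and 5.36 in 129S6, where the arrays were widely spread (1.16 ± 0.21, adjusted p = 0.0331). Hfe, the regulator of iron uptake that is mutated in human haemochromatosis, was at 7.56, 7.36 and 7.28 in B6, against 6.18, 6.27, 6.69 and 6.53 in 129S6 (0.98 ± 0.15, adjusted p = 0.0129). Cd59a passed whichever array was left out (adjusted p at most 0.00405). Hfe did not pass without B6 replicates 13 or 14 (adjusted p up to 0.0772), Serinc3 without any 1 of the B6 arrays or 129S6 replicates 10 or 12 (up to 0.0913), and Sdc4 without any 1 of the B6 arrays or 129S6 replicates 11 or 12 (up to 0.203). Cd59b passed only without replicate 9 among these fits (up to 0.212).

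The other called genes had varied roles. Spg21 encodes maspardin, whose loss causes a hereditary spastic paraplegia in humans, and was at 6.49, 5.78 and 5.73 in B6, against 4.80, 3.68, 4.06 and 3.79 in 129S6 (1.92 ± 0.26, 3.78-fold, adjusted p = 0.00341). Its B6 arrays all lay above the 129S6 arrays, of which replicate 9 was the highest. Ocel1, which shares a domain with occludin, was at 6.01, 6.09 and 5.90 in B6, against 6.79, 7.40, 7.16 and 6.96 in 129S6 (-1.08 ± 0.14, adjusted p = 0.00341). Cxxc5, a zinc finger protein that binds CpG-rich DNA, was at 7.48, 7.62 and 7.87 in B6, against 5.37, 6.71, 6.50 and 6.29 in 129S6 (1.44 ± 0.26, adjusted p = 0.0253; 1.16 ± 0.17 without replicate 9, the lowest array). The protein kinase Dyrk1a differed by 1.01 ± 0.17 (adjusted p = 0.0213), with the high value of 8.53 in B6 replicate 15. Gdap10 differed by 1.14 ± 0.21 (adjusted p = 0.0334) and a probe set annotated to Mir686 by 1.01 ± 0.16 (adjusted p = 0.013). Mrpl55, a protein of the mitochondrial ribosome (0.82 ± 0.14), the glutathione-binding protein Lancl1 (0.78 ± 0.14), the DNA damage kinase Atm (0.66 ± 0.11) and the zinc finger gene Zfp617 (0.61 ± 0.12) completed the 23. Spg21 and Ocel1 passed whichever array was left out (adjusted p at most 0.0331 and 0.0314). The other 8 genes of this paragraph each lost their call without some array, always including B6 replicate 13, with adjusted p up to 0.0913 for the Mir686 probe set, 0.2 for Cxxc5, 0.0965 for Dyrk1a, 0.165 for Mrpl55, 0.182 for Lancl1, 0.13 for Atm, 0.227 for Gdap10 and 0.25 for Zfp617.

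By its brighter probe set Ucp1 passed as lower in B6 muscle once replicate 9 was left out, and did not pass in the fit of all arrays. The B6 arrays were at 5.96, 5.74 and 5.60 log2 units, against 6.54, 9.70, 8.65 and 9.62 in 129S6 replicates 9 to 12. The B6 arrays were close together, and 3 of the 129S6 arrays were far above them. Replicate 9 was also above them, but lay nearer to B6 than to its own strain. With all arrays the difference was -2.86 ± 0.65 (adjusted p = 0.132). Without replicate 9 it was -3.56 ± 0.45, 11.8-fold higher in 129S6 (adjusted p = 0.00156), and -3.56 ± 0.48 without the high-fat B6 arrays too (adjusted p = 0.00538). Over the fits that left out 1 array in turn the adjusted p ran from 0.00156 to 0.467, and only the fit without replicate 9 called Ucp1. A second, dimmer Ucp1 probe set was at 3.97, 3.71 and 4.17 in B6, against 6.19, 5.32, 5.01 and 5.29 in 129S6, where replicate 9 was the highest array (-1.5 ± 0.26, adjusted p = 0.0224 over all probe sets). By this probe set the strains did not overlap and the difference passed with all arrays. Without replicate 9 and the high-fat B6 arrays it was smaller, at -1.26 ± 0.19 (adjusted p = 0.0133). Replicate 9 was the highest array on some other dim probe sets too, such as 1 of Slc2a4 (5.27, against 4.32 to 4.61). With the array number as a covariate the difference by the first probe set was -2.33 (adjusted p = 0.786). With the SD over probe sets as a covariate it was -3.37 (adjusted p = 0.0067). Array quality weights, which gave replicate 9 a weight of 0.106, put it at -3.56 (adjusted p = 9.37e-05). For B6 replicate 15 alone against the 129S6 arrays it was -3.03.

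Cidea, a lipid droplet protein abundant in brown fat, was at 6.56, 6.32 and 6.42 in B6, against 7.32, 9.65, 7.90 and 8.81 in 129S6. The groups did not overlap, and as for Ucp1 replicate 10 was the highest and replicate 9 the lowest 129S6 array. The difference was -1.98 ± 0.50 (adjusted p = 0.237), -2.35 ± 0.47 without replicate 9 (adjusted p = 0.0441) and -2.35 ± 0.50 without the high-fat B6 arrays too (adjusted p = 0.0557). Thrsp, a regulator of fatty acid synthesis in fat cells and liver, was at 8.48, 8.16 and 8.09 in B6, against 8.33, 10.24, 9.01 and 10.03 in 129S6, with replicate 9 inside the B6 range. Its difference was -1.16 ± 0.38 (adjusted p = 0.561), -1.51 ± 0.31 without replicate 9 (adjusted p = 0.051) and -1.51 ± 0.30 (adjusted p = 0.0388) without the high-fat B6 arrays too. Pck1, phosphoenolpyruvate carboxykinase, an enzyme of glucose and glycerol synthesis, was at 6.99, 5.09 and 4.88 in B6, against 6.54, 7.27, 7.68 and 7.47 in 129S6. B6 replicate 13 lay inside the 129S6 range and the difference did not pass (-1.59 ± 0.41, adjusted p = 0.237; -1.82 ± 0.41 without replicate 9, adjusted p = 0.0844).

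**Figure D3:**
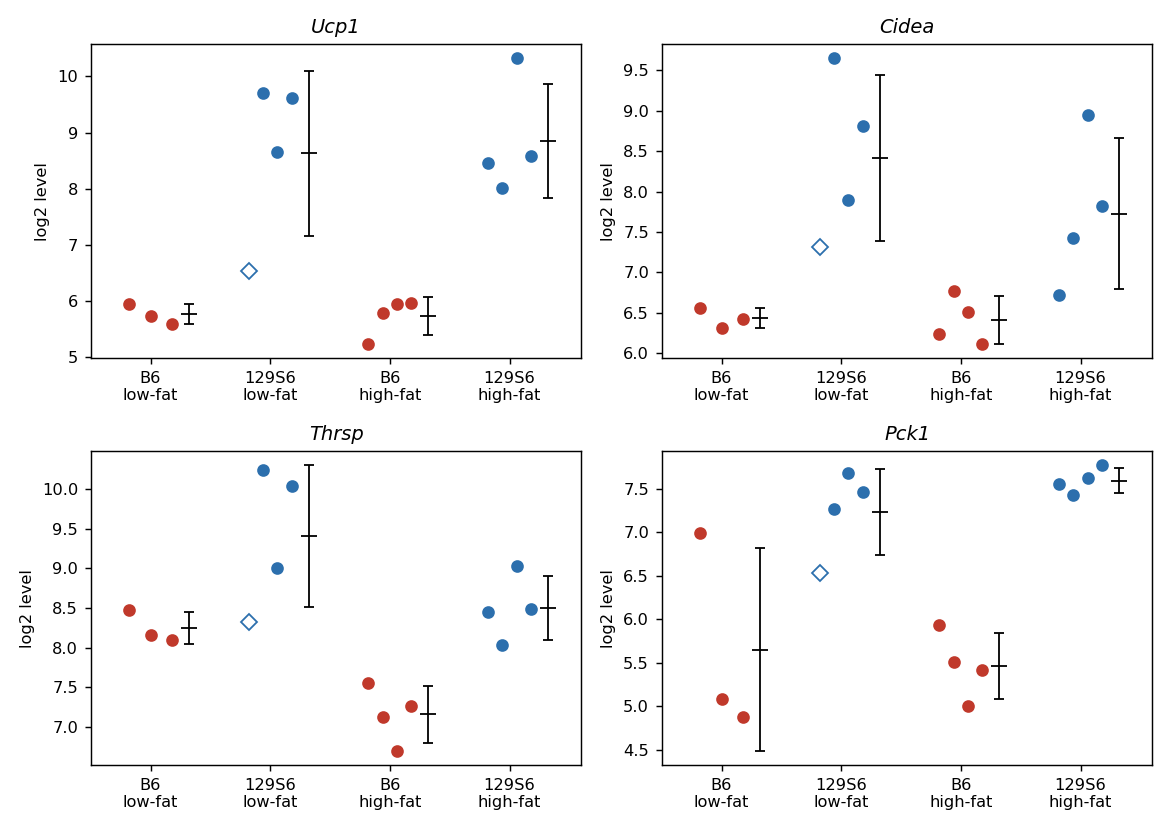
Levels of Ucp1, Cidea, Thrsp and Pck1 in each muscle array, in log2 units, with B6 in red, 129S6 in blue, group means ± SD in black and 129S6 low-fat replicate 9 as an open diamond. Low-fat Ucp1 is at 5.60 to 5.96 in the B6 arrays and at 8.65 to 9.70 in 129S6 replicates 10 to 12, with replicate 9 at 6.54.

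Ucp1, Cidea and Thrsp were the only called genes among the brown and general adipocyte markers in these 3 fits. Of 10 brown adipocyte markers measured, limma called 0 with all arrays (2 at an unadjusted p under 0.05), and Ucp1 and Cidea were called without replicate 9. Over all genes 0.279% were called with all arrays, 6.1% had an unadjusted p under 0.05, and 0.4% were called without replicate 9. The list's median difference was -0.11 with all arrays and -0.02 without replicate 9, against -0.04 and -0.02 over all genes. Its highest member without replicate 9 was Zic1, opposite in sign to Ucp1 and Cidea (0.50 ± 0.23, adjusted p = 0.596). When the high-fat B6 arrays were left out too, Zic1 was at 0.50 ± 0.13 (adjusted p = 0.0989). The strains did not overlap in Zic1 without replicate 9, and overlapped with it. Lhx8 was at -0.02 without replicate 9 (adjusted p = 0.984). Several of these markers were dim in the low-fat arrays, with Ppargc1a at 3.08 to 3.61 log2 units and Zic1 at 3.93 to 5.42. Elovl3 was at 4.16 to 5.16, Lhx8 at 4.86 to 5.37, Dio2 at 4.94 to 5.61 and Ebf2 at 4.98 to 5.82. Little can be read from small differences at such levels, on which the list's median also rests. Without replicate 9 the differences were -0.03 for the fatty acid elongase Elovl3, -0.13 for Dio2, which activates thyroid hormone, -0.09 for the mitochondrial coactivator Ppargc1a, 0.13 for the brown fat transcription factor Ebf2, and 0.05 and 0.45 for Cox8b and Cox7a1, respiratory chain subunits that muscle also makes (adjusted p from 0.761 to 0.981). Of 20 adipocyte markers 0 were called with or without replicate 9 (5 at an unadjusted p under 0.05 with all arrays), and Thrsp was when the high-fat B6 arrays were left out too. Adiponectin, encoded by Adipoq, was at 10.34, 9.85 and 9.74 in B6, against 9.53, 9.49, 10.0 and 9.56 in 129S6, and the fatty acid binding protein Fabp4 was at 7.12, 6.94 and 6.51 in B6, against 6.75, 6.90, 6.86 and 7.08 in 129S6. Both genes overlapped between the strains. Resistin, encoded by Retn, was at 8.60, 8.10 and 7.85 in B6, against 6.27, 7.43, 7.13 and 7.30 in 129S6 (1.15 ± 0.27, adjusted p = 0.174; 0.90 ± 0.22 without replicate 9, adjusted p = 0.13). Lpl, the lipoprotein lipase that muscle also makes, was at 10.14, 10.44 and 10.40 in B6, against 9.68, 9.43, 9.93 and 9.32 in 129S6 (0.74 ± 0.19, adjusted p = 0.237). In these 2 genes the B6 arrays lay above all 129S6 arrays, and neither passed. A second, dimmer Lpl probe set gave 0.92 ± 0.42 with overlap (adjusted p = 0.754 over all probe sets). Without replicate 9, Scd1 was at -0.95, Pparg at -0.50, Lipe at -0.33 and Cebpa at -0.30 (adjusted p from 0.512 to 0.85). Scd1 and Lipe then did not overlap, as was true of 18.9% of all genes. The median of the 20 adipocyte markers was -0.04 with all arrays and -0.12 without replicate 9. The summed level of the adipocyte markers was 9777.8 to 11910 in B6, against 6849.3 to 14214 in 129S6, and that of the brown adipocyte markers, to which Cox8b contributes most, was 3977.3 to 4607.3 in B6, against 1170.1 to 5754.4 in 129S6. In whole muscle, fewer cells of a type and less RNA per cell cannot be told apart. The part of fat cells in the samples in the Ucp1 difference was not tested.

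No listed gene of the muscle fibre or its energy metabolism was called between the strains with all arrays, and the medians of these lists depended on replicate 9. No member of the 28 gene lists was called with all arrays, and 23 of all genes (0.279%) were. At that share most lists of these sizes would hold no call, so its absence says little about the genes listed. The median difference of 67 oxidative phosphorylation subunits was 0.50 with all arrays and 0.02 without replicate 9. For 14 slow fibre contractile genes these medians were 0.40 and 0.10, for 16 fast fibre genes 0.37 and -0.01, for 34 genes of glycolysis and glycogen 0.29 and -0.13, and for 31 ribosomal protein genes 0.26 and -0.08. In all, 7 lists had a median above 0.2 with all arrays and 0 did without replicate 9. The slow myosin Myh7 was at 9.30 to 9.36 in B6, against 8.70 to 10.43 in 129S6, and the fast myosin Myh4 at 12.87 to 13.16 in B6, against 11.73 in replicate 9 and 13.03 to 13.12 in the other 129S6 arrays. Myh2 was dim, at 3.71 to 4.35 in all 7 arrays. The troponin genes Tnni1 and Tnni2 differed by -0.10 and 0.16 without replicate 9.

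**Figure D4:**
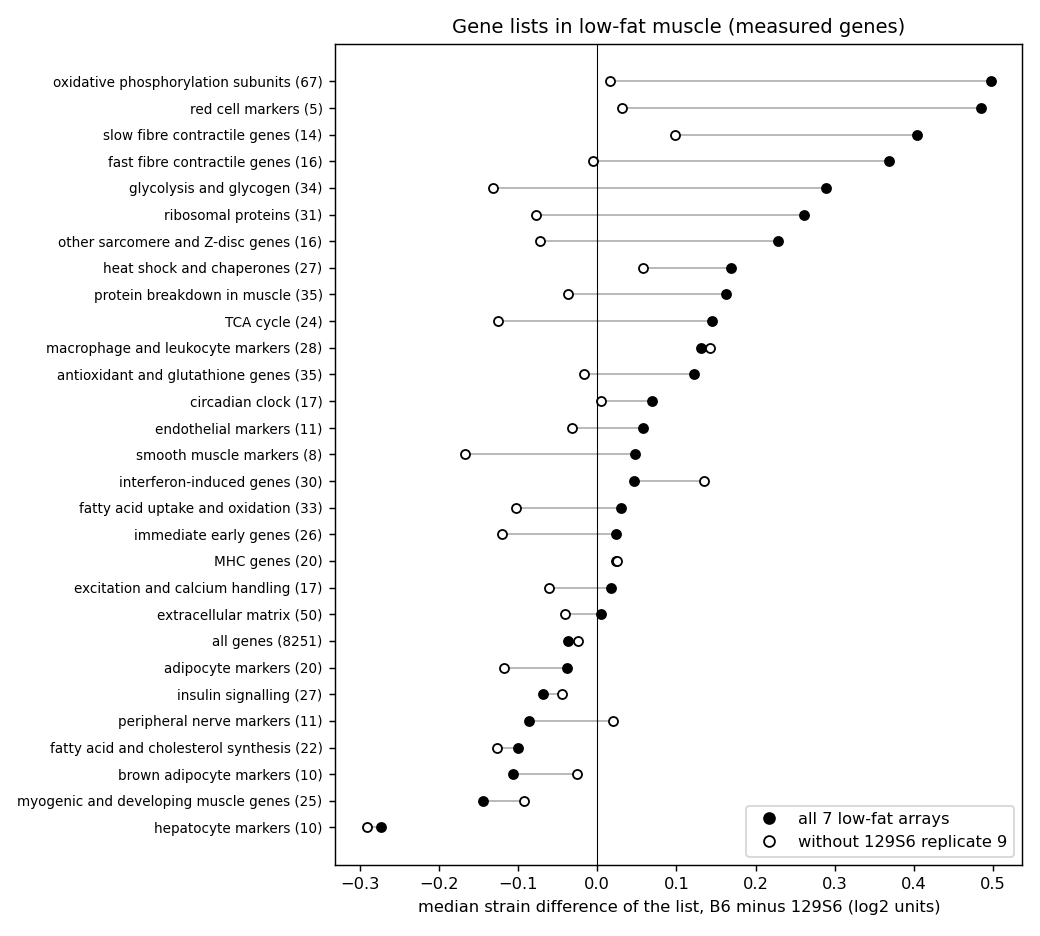
Median strain difference (B6 minus 129S6, log2 units) of each of the 28 gene lists and of all genes, with the number of measured genes in brackets. Filled points are from all 7 low-fat arrays and open points are without 129S6 replicate 9; the oxidative phosphorylation list lies at 0.50 and 0.02.

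Genes of glucose uptake and insulin action were measured next. The insulin-responsive glucose transporter Slc2a4 was at 10.24, 9.86 and 9.92 in B6, against 8.10, 10.48, 10.03 and 10.07 in 129S6, and hexokinase Hk2 was at 9.03, 9.00 and 8.40 in B6, against 7.10, 9.31, 9.06 and 9.01 in 129S6. In both, replicate 9 was far below every other array. Without it the differences were -0.19 ± 0.26 and -0.31 ± 0.29 (adjusted p = 0.93 and 0.883), against 0.33 and 0.19 for Slc2a4 and Hk2 with all arrays (adjusted p = 0.857 and 0.919). The insulin receptor gene Insr differed by -0.13, its substrate Irs1 by -0.03, the growth factor Igf1 by -0.02 and the muscle growth inhibitor Mstn by -0.40 (adjusted p from 0.842 to 0.989 without replicate 9). For the fuel-switch kinase Pdk4, the uncoupling protein Ucp3 and the transhydrogenase Nnt the differences were 0.24, -0.23 and 0.37 (adjusted p from 0.891 to 0.91). Of 27 insulin signalling genes limma called 0 with or without replicate 9, where 0.279% and 0.4% of all genes were called, and 1 had an unadjusted p under 0.05 with all arrays, against 6.1% of all genes. Their median was -0.07 with all arrays and -0.04 without replicate 9. Among the genes fixed for description, Adrb3, Cfd and Cpt1b were not among the genes tested.

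In 8 of the lists 1 or 2 members were called when replicate 9 and the high-fat B6 arrays were left out. Beside Ucp1 and Thrsp these included, higher in B6, the respiratory chain subunits Cox6c (0.84 ± 0.17, adjusted p = 0.038) and Ndufa3 (0.52 ± 0.09, adjusted p = 0.027), the slow muscle myosin light chain Myl6b (0.59 ± 0.10, adjusted p = 0.022) and the pericyte and smooth muscle regulator Rgs5 (0.71 ± 0.12, adjusted p = 0.022). Lower in B6 were Phkg1, a subunit of the kinase that activates glycogen breakdown (-0.81 ± 0.15, adjusted p = 0.0265), and the mitochondrial peroxidase Prdx3 (-0.79 ± 0.14, adjusted p = 0.0263). With all arrays Phkg1 was at -0.36 and Prdx3 at -0.29 (adjusted p = 0.865 and 0.877), and without replicate 9 alone neither passed (adjusted p = 0.637 and 0.407). Ndufa3 was at 1.47 with all arrays (adjusted p = 0.808), Cox6c at 1.01 (0.0891), Myl6b at 0.54 (0.102) and Rgs5 at 0.52 (0.719), and without replicate 9 alone Myl6b was the only one of these 4 to pass (adjusted p = 0.0398). Cox6c was 1 of 2 called among 67 oxidative phosphorylation genes, of which 20 had an unadjusted p under 0.05. The other 2 probe sets of Cox6c gave -0.35 and 0.19 and did not pass (adjusted p = 0.683 and 0.776 over all probe sets). A second probe set of Ndufa3 was at 0.06 and that of Myl6b at 0.10 in this fit, and neither passed (adjusted p = 0.895 and 0.792). Of the 16 fast fibre genes, the 24 genes of the TCA cycle and the 30 interferon-induced genes 0 were called, and 2, 10 and 12 had an unadjusted p under 0.05. Over all genes this fit called 78 (0.945%) and gave 1094 an unadjusted p under 0.05 (13.3%). Macrophage and leukocyte markers, 28 genes with 0 calls, had a summed level of 4330.8 to 12501 in B6, against 3094.4 to 4921.6 in 129S6, with the high value in B6 replicate 13.

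The same fit called further genes outside the lists. Pttg1, or securin, a regulator of sister chromatid separation, was at 8.83, 8.94 and 9.14 in B6, against 8.81, 7.72, 7.5 and 7.66 in 129S6. Replicate 9 lay just below the lowest B6 array. The difference was 1.34 ± 0.11 (adjusted p = 8.59e-05), and 1.05 ± 0.24 with all arrays (adjusted p = 0.134). Odc1, the first enzyme of polyamine synthesis, was at 6.65, 7.07 and 7.34 in B6, against 6.84, 8.28, 8.62 and 8.04 in 129S6 (-1.29 ± 0.21, adjusted p = 0.0166). Fam3c, a secreted protein, was at 6.00, 6.54 and 6.97 in B6, against 7.11, 5.33, 5.09 and 5.25 in 129S6 (1.28 ± 0.21, adjusted p = 0.0158), while a difference of -0.10 came from its other probe set above 4.5 log2 units (adjusted p = 0.818 over all probe sets). In these 3 genes replicate 9 lay next to, among or beyond the B6 arrays. With all arrays Odc1 was at -0.93 and Fam3c at 0.81, and neither passed (adjusted p = 0.622 and 0.808). Clip4 (1.34 ± 0.24) and AI506816 (1.79 ± 0.36, with 0.03 by another probe set) were also higher in B6. The receptor phosphatase Ptprm (-0.98 ± 0.12; -0.50 by its other probe set, which did not pass, adjusted p = 0.158), Ginm1 (-0.86 ± 0.13), Clec16a (-0.75 ± 0.14), Opn1mw (-0.71 ± 0.10) and Nelfcd (-0.64 ± 0.13) were lower. With all arrays the differences were 0.98 for Clip4, 1.94 for AI506816, -0.90 for Ptprm, -0.67 for Ginm1, -0.41 for Clec16a, -0.64 for Opn1mw and -0.46 for Nelfcd, and none of the 7 passed (adjusted p from 0.124 to 0.808).

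On the high-fat diet the strain difference in muscle was called for 2414 genes (29.3%), 1283 higher (15.5%) and 1131 lower (13.7%) in B6, with the B6 arrays of narrow spread on the B6 side. Of the 23 genes of the low-fat diet, 15 were called in the same direction there (65.2%, and 0.621% of the high-fat calls), 1 in the opposite direction, and 7 were not called. The values lay side by side for Gas5 (3.44 on the low-fat and 2.73 on the high-fat diet), Gdpd3 (-2.49 and -2.77), Pla2g12a (1.87 and 2.44), Pla2g7 (1.70 and 1.61), Cd59a (1.72 and 1.99), Spg21 (1.92 and 2.45), Serinc3 (1.77 and 1.5) and Sdc4 (1.16 and 1.25). High-fat Ucp1 showed a difference of -3.11 ± 0.60 (adjusted p = 0.00463), at 5.24 to 5.97 in B6, against 8.02 to 10.32 in 129S6, while Cidea had a difference of -1.32 ± 0.47 (adjusted p = 0.0467). The low-fat minus the high-fat difference was 0.25 ± 0.88 for Ucp1 (adjusted p = 0.84), and its sign turned to -0.45 without replicate 9 (adjusted p = 0.609). Pck1 was called on the high-fat diet, at 5.00 to 5.93 in B6, against 7.43 to 7.77 in 129S6 (-2.13, adjusted p = 0.00344).

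The test of the difference between the diets called 263 genes (3.19%), 209 with a more positive strain difference on the low-fat diet (2.53%) and 54 with a more negative one (0.654%). Of the 23 genes, 7 passed it. Snhg6 was among them (2.68 ± 0.67, adjusted p = 0.0466), with 2 high-fat B6 arrays at 7.34 and 7.02 and the other 2 at 5.11 and 5.08, against 5.06 to 5.38 in high-fat 129S6. Cxxc5 had opposite differences, 1.44 on the low-fat and -0.94 on the high-fat diet (2.38 ± 0.35, adjusted p = 0.0219). The other 5 were the Mir686 probe set (1.36), Mrpl55 (0.85), Lancl1 (0.79), Pxmp2 (0.77) and Adh1 (-0.61), each with a high-fat difference between -0.35 and -0.01. The largest values over all genes were in the ribosomal protein Rps18 (4.69), the glycolytic enzymes Pkm (4.62) and Pgam2 (4.54), Elob (4.31) and the actin-severing protein Gsn (4.21) on the positive side. On the negative side they were in the potassium channel Kcnma1 (-1.91), the gap junction protein Gja1 (-1.70), the transcription factor Mitf (-1.5), the sphingosine phosphate receptor S1pr1 (-1.45) and Klhl7 (-1.32). Without replicate 9 they were 3.71 for Rps18, 3.47 for Pkm and 3.75 for Pgam2, and -1.5 for Kcnma1. Pkm was at 12.82 to 13.03 in low-fat B6, against 12.83 to 12.97 in low-fat 129S6 replicates 10 to 12 and 8.31 in replicate 9, and at 8.28 to 9.99 in high-fat B6, against 12.60 to 12.82 in high-fat 129S6. Pkm was low in the 5 arrays of narrow SD over probe sets and in no other muscle array. With that SD as a covariate 4 genes were called in place of 263, and 2 without B6 replicate 13, 2 without B6 replicate 14, 55 without B6 replicate 15, and 810, 646 and 760 without 129S6 replicates 9, 10 and 11. Spread and group cannot be told apart for the high-fat B6 arrays, all of which are narrow.

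**Figure D5:**
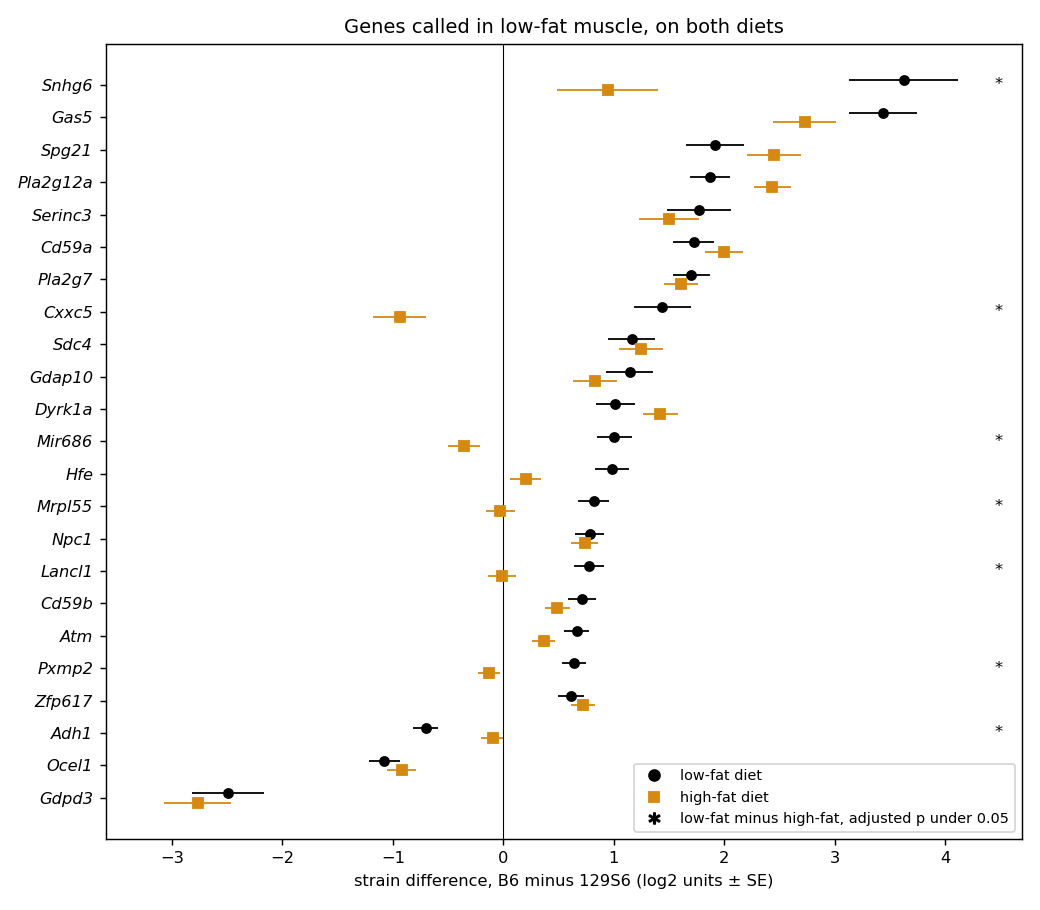
Strain difference (B6 minus 129S6, log2 units ± SE) of the 23 genes called in low-fat muscle, on the low-fat diet (black circles) and on the high-fat diet (orange squares). Asterisks mark the 7 genes whose differences differed between the diets, among them Cxxc5 with 1.44 and -0.94 and Snhg6 with 3.62 and 0.95.

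In liver on the low-fat diet 1106 genes were called between the strains (13.4%), 792 higher (9.6%) and 314 lower (3.81%) in B6, and in epididymal fat 84 (1.02%), 30 higher (0.364%) and 54 lower (0.654%). Of the 23 muscle genes, 12 were called in liver in the same direction (52.2%, and 1.08% of the liver calls) and 6 in fat (26.1%, and 7.14% of the fat calls). Gas5, Snhg6, Cd59a, Gdpd3 and Ocel1 were called in all 3 tissues. Gdpd3 was at 6.03 to 6.32 in B6 liver, against 7.92 to 9.13 in 129S6 liver, and at 6.11 to 6.73 in B6 fat, against 9.50 to 9.73 in 129S6 fat, with no overlap in either tissue. Cd59a differed by 1.28 ± 0.18 in liver and 1.40 ± 0.29 in fat, and Ocel1 by -0.93 ± 0.16 and -0.86 ± 0.13. Pla2g12a was called in fat (1.69 ± 0.31, adjusted p = 0.0182) and not in liver (0.37 ± 0.24, adjusted p = 0.312), and Pla2g7 in neither (-0.54 and 0.66, adjusted p = 0.283 and 0.609). Adh1 went the other way in liver (0.43 ± 0.11, adjusted p = 0.0208). Whether these differences differ between tissues was not tested.

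Ucp1 and its companions had their own pattern across the tissues. In fat, Ucp1 was at 4.75 to 5.08 in low-fat B6, against 5.61 to 7.11 in low-fat 129S6, without overlap and without a call (-1.24 ± 0.35, adjusted p = 0.166). In liver, which lacks brown fat cells, it was at 5.02 to 5.28 in B6, against 5.12 to 5.32 in 129S6. The muscle levels of the B6 arrays (5.60 to 5.96) were within 1 log2 unit of the liver's, by the same probe set. Cidea was lower in B6 fat (-1.88 ± 0.30, adjusted p = 0.009) and higher in B6 liver (3.51 ± 0.21), and Thrsp was higher in B6 liver too (2.50 ± 0.38, adjusted p = 0.000372). Pck1 differed by -2.58 in fat, at 6.45 to 7.98 in B6, against 9.83 to 10.15 in 129S6 (adjusted p = 0.00386), and by -0.04 in liver (adjusted p = 0.892).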

How the data were processed

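Expression was measured on Affymetrix arrays with 1 colour. The authors deposited log2 values made with RMA, per the submitters' processing notes; they name no version. RMA equalises the distributions of the arrays it processes together, and deposited arrays nevertheless differed in spread. Of 12488 probe sets, 10833 carried 1 gene symbol in the platform annotation, 396 carried several, 1193 none and 66 were controls. Symbols were updated by Entrez gene ID to RefSeq (GRCm38.p6) for 10817 probe sets and kept for 16. The brightest probe set by its mean over the 15 muscle arrays stood for each of the 8251 genes.

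Groups followed the labelled tissue, diet and strain. A mean for each of the 4 muscle groups was fitted with limma 3.58.1 in R 4.3.3, with moderated variances shared by all 15 arrays. Tests were two-sided, with Benjamini-Hochberg adjustment over all genes and a threshold of 0.05. Liver and fat were fitted in the same way, each apart, with the same probe sets. Where a single gene's other probe sets are given, adjustment was over all probe sets with 1 symbol. Array measures were compared by exact permutation tests in scipy 1.17.1, adjusted over 13 measures. Summed marker levels are sums of 2 to the power of the log2 values. Figures were drawn with matplotlib 3.10.9. The fit was also tested on simulated data. The precision is set by the number of arrays; labels do not say whether pools shared a cage, litter or day.

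Genes were named by a rule. It took the 12 largest called differences each way whose groups do not overlap, and up to 4 called members of each of 28 gene lists. It also took a short fixed list, and the 5 largest each way in the test between the diets. For named genes called on the low-fat diet, other probe sets above a mean of 4.5 log2 units are given where they did not pass. The rule was applied to the fit of all arrays and, after the values were seen, to the fit without 129S6 replicate 9 and the high-fat B6 arrays. The called genes beyond the rule, and Pck1, were named after their values were seen. The comparison, gene lists and rule were chosen with earlier results of these data known. Alternatives covered probe sets, dim genes, normalization, the groups in the fit, array weights, covariates and each array left out in turn.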

Additional observations from a re-analysis of the deposited data

Results flagged for a closer look

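Array 129S6 replicate 9 lay farther from the other 3 low-fat 129S6 arrays than Dixon's limit for 4 values allows in many of the values given. It was the lowest of the 4 in the SD over probe sets (1.574), the interquartile range (2.17 log2 units) and the summed levels of the fibre markers (18838.4) and the smooth muscle markers (1067.4). It was likewise the lowest for Cox8b (9.19), Elob (7.63), Gsn (7.31), Hk2 (7.10), the Mir686 probe set (7.34), Myh4 (11.73), Ndufa3 (7.46), Pgam2 (8.70), Phkg1 (6.68), Pkm (8.31), Prdx3 (7.85) and Rps18 (7.90). It was the highest for Fam3c (7.11), Gja1 (8.60), Mitf (6.06), Pttg1 (8.81) and S1pr1 (6.54). The arrays of replicates 10 and 11 passed this limit once each, replicate 11 as the highest for Adipoq (10.0) and replicate 10 as the lowest for Npc1 (7.12). Chance passes this limit in about 1 in 20 groups of 4 values. Fam3c, Ndufa3, Phkg1, Prdx3 and Pttg1 were named through the fit that left replicate 9 out. Elob, Gsn, Pgam2, Pkm, Rps18, Gja1, Mitf and S1pr1 were named through the test between the diets, which replicate 9 entered. Their flags are not independent of that naming, so the number of flags cannot be set against that share.

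The strain difference in muscle differed between the diets, by the test of the low-fat minus the high-fat difference, for several genes given above. On the positive side were Rps18 (4.69), Pkm (4.62), Pgam2 (4.54), Elob (4.31), Gsn (4.21), Cox7a1 (3.40), Cox8b (2.86), Snhg6 (2.68), Cxxc5 (2.38), the adipokine gene Retn (1.56), the Mir686 probe set (1.36), Mrpl55 (0.85), Lancl1 (0.79) and Pxmp2 (0.77). On the negative side were Kcnma1 (-1.91), Gja1 (-1.70), Mitf (-1.5), S1pr1 (-1.45), Klhl7 (-1.32) and Adh1 (-0.61). The 263 calls of this test became 4 with the SD over probe sets as a covariate and 5 with the array number. Without B6 replicate 13, and likewise without B6 replicate 14, 2 were left. Diet and narrow spread cannot be told apart for the high-fat B6 arrays.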

How the results depend on the processing

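For the low-fat strain difference, 23 genes in the report, the count was 6 with only the 2 groups in the fit, 585 with array quality weights, 52 with the SD over probe sets as a covariate, 4 with the array number as a covariate, 5 with B6 replicate 15 alone on the B6 side, and 9 to 33 with each array left out in turn. Alternatives chosen after the data were seen gave 37 with the Gapdh 3' minus 5' signal as a covariate, 78 without 129S6 replicate 9 and the high-fat B6 arrays, and 51 with only low-fat arrays without replicate 9. For the test between the diets, 263 genes in the report, the counts were 1700 with weights, 4 with the SD, 5 with the array number, 0 with B6 replicate 15 alone (limma; 1004 at an unadjusted p under 0.05), 1342 with the Gapdh signal and 2 to 810 with each array left out. The 15 genes called on both diets became 7 to 24 with each array left out. The causes were not tested. The weights were 0.106 for 129S6 replicate 9 and 5.39 for B6 replicate 14. Without 129S6 replicate 9 the interaction held the 263 genes among its 810.

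Of 1844 differences of named genes recomputed under 20 alternatives, 1620 kept their side of the threshold, 148 lost a call, 76 gained one and 0 turned sign past the threshold; 132 turned sign without a call in either fit. Cd59a, Gas5, Pla2g12a and Pla2g7 were called under all 20. Probe sets near background limit what can be read from the second probe sets. No paired analysis was possible because the low-fat groups share no replicate numbers.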

Other observations

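Beyond the genes named by the rule, the fit without 129S6 replicate 9 and the high-fat B6 arrays called further genes. Those given here were picked after their values were seen. Several act on RNA or chromatin, and the share of such genes among the calls was not tested. Higher in B6 were Fmr1, the RNA-binding protein lost in fragile X syndrome (1.19 ± 0.18), Ssb, the La protein that binds new RNA polymerase III transcripts (1.15 ± 0.17), the splicing regulator Mbnl1 (0.99 ± 0.19), Kmt2e (1.05 ± 0.20), the histone-binding protein Rbbp4 (0.98 ± 0.19), the chromatin remodeller Chd8 (0.77 ± 0.15) and Med1, a subunit of the Mediator complex (0.73 ± 0.10). With all arrays their differences were 0.96 for Fmr1, 0.47 for Ssb, 0.99 for Mbnl1, 0.64 for Kmt2e, 0.80 for Rbbp4, 0.60 for Chd8 and 0.47 for Med1, and none was called (limma adjusted p from 0.096 to 0.84). Lower in B6 were the amino acid transporter Slc38a4 (-0.60 ± 0.12) and the glutaredoxin Glrx (-0.58 ± 0.12), at -0.35 and -0.45 with all arrays (adjusted p = 0.808 and 0.63).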
